A study of Mus musculus with 1119 samples.

Results

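A set of 9 transcription factor genes known from the mesenchyme of hair follicles was followed across single mouse skin cells: the paired-type homeobox genes Alx4 and Prrx1, the T-box genes Tbx15 and Tbx18, the HMG box genes Sox2 and Sox18, the bHLH genes Twist1 and Twist2, and Trps1, which encodes a GATA-type zinc finger repressor. They were taken by name, so no measured value chose them, and all 9 have a row among the 46609 rows of the expression tables. The dermal papilla is the knot of specialised fibroblasts that sits inside the bulb of a growing hair and sends WNT, BMP and FGF signals to the matrix, the dividing epithelial progenitors that wrap round it. Each of the 9 genes has a place in mesenchyme: Prrx1, Twist1 and Twist2 are used across limb, head and skin mesenchyme, Tbx15 shapes the dorsoventral border of coat colour in mouse skin, and Tbx18 and Sox18 are known from the papilla or its embryonic precursors. Sox2 is known from the papillae of guard, awl and auchene hairs and not from those of zigzag hairs, and loss of TRPS1 or ALX4 function in people causes sparse hair or skull and hair defects.

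The study sorted single cells of mouse back skin into plates and made Smart-seq2 libraries, which cover whole transcripts and do not mark strand. The dermal papilla cells (87, 87, 86 and 77 on plates DP2, DP3, DP5 and DP6) came from male K14-H2BGFP;LEF1-RFP mice at postnatal day 30 (P30), a strain whose names point to green nuclei under the keratin 14 promoter and red fluorescence tied to Lef1, and the sort also used integrin α9 and CD117. The P30 matrix cells (74 to 81 on each of 5 plates) came from Lhx2-GFP (CD1) mice of mixed sex, sorted on GFP, CD34, Sca-1, P-cadherin and the integrins α6 and b1. The other 398 of the 1119 cells came from Lgr5-eGFPiresCreER;R26-tdTomato mice of mixed sex, sorted on tdTomato, GFP, CD34, P-cadherin and the same integrins: matrix cells at P25 to P27 (55, 76 and 68 on 3 plates), 89 hair germ cells of early growth (anagen) at P23 to P27, and, from the resting stage (telogen) at P21, 71 hair germ cells and 39 bulge stem cells, with the types as the authors' annotation gives them. Papilla and epithelium therefore differ in strain, sex, sort, plates and deposited table as well as in cell type, and these cannot be told apart. No label names an animal, so each type counts as 1 sample, no difference was tested, and the intervals given for shares allow for counting error alone.

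The values are the authors' TPM, a transcript level corrected for length that sums to 1000000 in each cell, and a gene is called detected in a cell at a TPM of 1 or more. Depth in reads is unknown. Of the columns labelled dermal papilla, 33 (14, 2, 12 and 5 on the 4 plates) held between 2 and 24 detected genes, and the next lowest held 2693. None of the 33 had any of the 9 transcription factor genes, and only 3 of 22 follicle mesenchyme markers appeared in them at all, each in 1 cell. Results are therefore given for all papilla columns and for the gene-rich papilla cells, those with at least 2000 detected genes (73, 85, 74 and 72 on the 4 plates), a limit set after seeing the data. Gene-rich papilla cells had a median of 5888.5 detected genes, against 7413 in P30 matrix cells above the same limit, and their median share of TPM on spike-in RNA was 8.46%, against 0.71%. Markers of the papilla were common in the gene-rich cells: Vcan, a matrix proteoglycan, was detected in 99.7% of them, Wif1, a secreted WNT inhibitor, in 99%, Hhip, a hedgehog-binding protein, in 97.7% and Corin, a membrane protease of the papilla, in 91.8%, while the basal keratin Krt14 was detected in 1.64% and Cdh5 of endothelium in none (up to 0.987%, with 3 cells of the total taken as the limit that a count of 0 allows, here and for other counts of 0). Cdh5 was 1 of the 3 endothelial markers, of 10 listed, that no gene-rich papilla cell had, and 1 of the 10 was detected in at least 20% of the cells. These cells had a median of 16 of the 22 follicle mesenchyme markers (range 4 to 20), with Alpl in 48.7% and Bmp6 in 26.3%. The median was 0 of the 10 endothelial markers (0 to 3) and 0 of 10 keratinocyte markers (0 to 9). It was 2 of 10 dermal sheath and smooth muscle markers (0 to 6) and 1 of 10 melanocyte markers (0 to 4). Among these cells, 76 had 3 or more of the sheath and smooth muscle markers and 25 had 3 or more of the melanocyte markers.

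Gene positions are those of GENCODE M21 on GRCm38 (mm10), and all 9 are protein-coding. Alx4 spans chr2:93642384-93681339 (plus strand), Prrx1 chr1:163245119-163313710 (minus), Tbx15 chr3:99240381-99354259 (plus), Tbx18 chr9:87702800-87731260 (minus) and Sox2 chr3:34650405-34652461 (plus). Sox18 spans chr2:181669836-181671640 (minus), Twist1 chr12:33957671-33959829 (plus), Twist2 chr1:91801461-91848028 (plus) and Trps1 chr15:50654752-50890463 (minus). Reads of overlapping genes cannot be told apart by strand in these libraries. Alx4 overlaps Ext2, a heparan sulphate polymerase gene on the other strand, over 20312 bases, and Ext2 was detected in 81.3% of the gene-rich papilla cells at a mean of 33.6 TPM, with a Spearman correlation of 0.08 with Alx4. All 2057 bases of Sox2 lie inside Sox2ot, a non-coding gene of the same strand, which was detected in 12 of the 61 gene-rich cells with Sox2 and in 9 of the cells without it.

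Twist1 and Twist2 encode closely related bHLH proteins, and the share of papilla cells with each differed widely, so the 250 bases before the start of each are shown, 5′ to 3′ on the gene's own strand, from RefSeq (GRCm38.p6). Windows were matched for 5 of the 9 genes. Capitals mark the letters CCAAT, a common promoter element, searched on both strands. Each window holds 1, as do 33.8% of all 32851 RefSeq windows of this length, and neither holds an E-box (CANNTG), the kind of site that bHLH proteins bind, which 66.2% of windows do. These are matches of letters and not shown to be used.
Twist1, chr12:33957421-33957670: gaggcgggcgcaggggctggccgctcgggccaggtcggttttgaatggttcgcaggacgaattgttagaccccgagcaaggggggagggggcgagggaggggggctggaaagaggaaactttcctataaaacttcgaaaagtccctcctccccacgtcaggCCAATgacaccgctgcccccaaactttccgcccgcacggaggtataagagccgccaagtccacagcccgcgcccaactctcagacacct
Twist2, chr1:91801211-91801460: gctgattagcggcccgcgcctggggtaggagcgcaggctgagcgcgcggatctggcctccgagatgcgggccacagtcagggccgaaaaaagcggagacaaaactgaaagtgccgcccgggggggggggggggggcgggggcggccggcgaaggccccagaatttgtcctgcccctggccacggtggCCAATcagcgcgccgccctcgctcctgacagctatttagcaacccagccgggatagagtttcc

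In papilla cells the 9 genes fell into 3 tiers. Trps1, Prrx1 and Alx4 were found in nearly every cell, Tbx15 and Twist1 in most, and Twist2, Sox2, Tbx18 and Sox18 in a minority. Prrx1 and Trps1 were each detected in all but 1 of the gene-rich cells (99.7%, exact 95% interval 98.2 to 100) and Alx4 in all but 10 (96.7%, 94 to 98.4). Tbx15 was detected in 82.6% (77.8 to 86.7), all but 53 cells, and Twist1 in 73.7% (68.4 to 78.5), all but 80. Twist2 was found in 75 cells (24.7%, 19.9 to 29.9), Sox2 in 61 (20.1%, 15.7 to 25), Tbx18 in 47 (15.5%, 11.6 to 20) and Sox18 in 26 (8.55%, 5.66 to 12.3). Over all papilla columns the same counts give 89.9% for Prrx1 and Trps1, 87.2% for Alx4, 74.5% for Tbx15, 66.5% for Twist1, 22.3% for Twist2, 18.1% for Sox2, 13.9% for Tbx18 and 7.72% for Sox18.

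**Figure D1:**
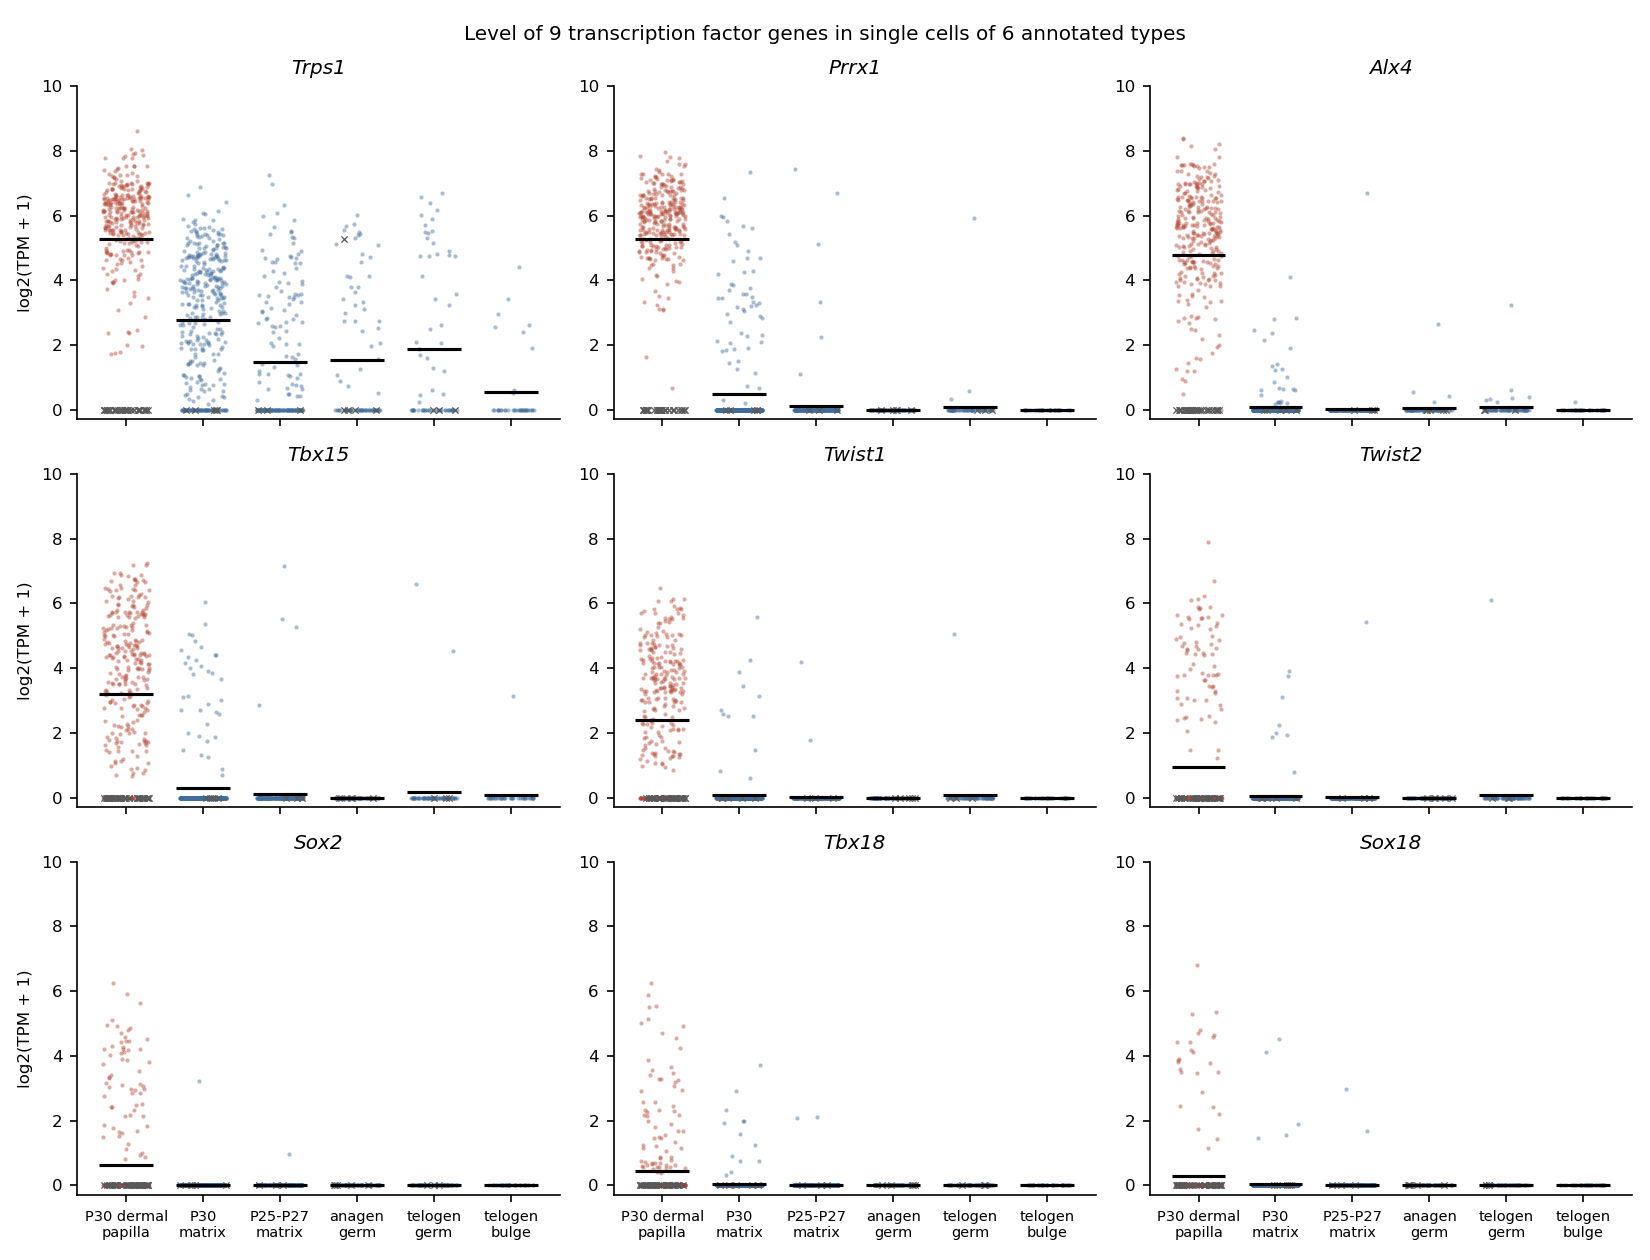
Level of each gene, as log2(TPM + 1), in single cells of the 6 annotated types, with 1 panel per gene in order of mean TPM in the papilla. Points are cells, crosses are cells with under 2000 detected genes and bars are means over all cells of a type; Trps1 is the gene with many positive cells outside the papilla (72.9% of P30 matrix cells).

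Levels in single papilla cells followed the same order. Over the gene-rich cells Trps1 ran from 0 to 391.4 TPM with a median of 65.8, Prrx1 from 0.59 to 250.7 with a median of 62.4, and Alx4 from 0 to 335.9 with a median of 47.6. These 3 ranked 459th, 495th and 555th by mean TPM among 14015 genes detected in at least 5% of the cells. Tbx15 had a median of 14.4 TPM (highest 150.8) and Twist1 of 7.24 (highest 87.6). The medians of Twist2, Sox2, Tbx18 and Sox18 were 0, and their highest values were 237.1, 74.8, 75.6 and 110.8 TPM. In the cells that had them, the median level of Twist2 was 20.8 TPM and that of Sox18 was 13.4 TPM, close to the 11.7 TPM of Twist1 and the 20.1 TPM of Tbx15 in their own positive cells. Sox2 had 9.04 TPM and Tbx18 4.97 TPM in the same measure. So Twist2 and Sox18 were detected in fewer cells than Tbx15 and Twist1, while the median levels in positive cells were close. These medians leave out the cells at 0, where a gene may lie under the limit of detection. The part of missed detection in the lower shares was not tested.

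Plates give a spread for this order, and whether they hold different animals is not in the labels. Over the 4 plates of gene-rich cells, mean levels ran from 62.3 to 84.5 TPM for Trps1, 64.1 to 81.6 for Prrx1 and 54 to 72.7 for Alx4, so the order of these 3 did not hold beyond the spread of plates. Tbx15 (21.5 to 30.5 TPM) lay apart from Alx4 above it and from Twist1 (9.05 to 14.6) below it. Twist1 and Twist2 (4.74 to 9.42 TPM) overlapped slightly in level but not in share of cells (69.4 to 81.2% against 21.6 to 27.1%). Sox2 (1.58 to 3.76 TPM), Tbx18 (0.504 to 3.95) and Sox18 (0.662 to 3.09) overlapped each other. The share of cells with Sox18 was 14.1% on plate DP3, against 5.48% on DP2, 5.41% on DP5 and 8.33% on DP6.

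**Figure D2:**
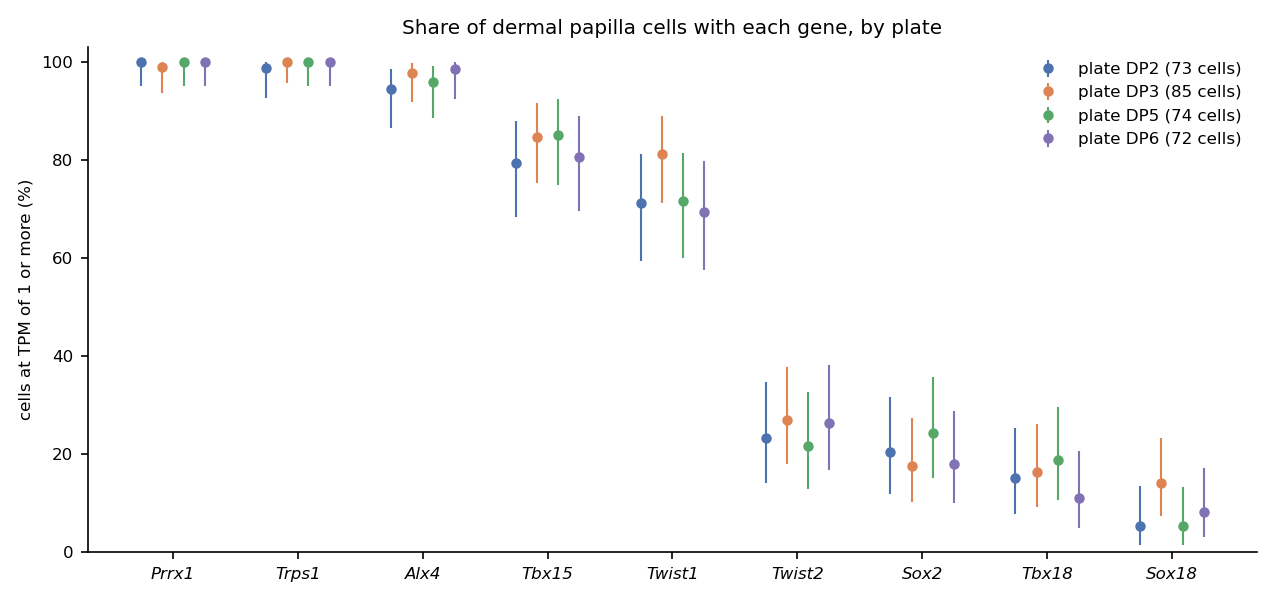
Share of dermal papilla cells with a TPM of 1 or more for each gene, on each of the 4 plates, among cells with at least 2000 genes. Points are shares and bars are exact 95% intervals, which cover counting error only; the gap between Twist1 (lowest plate 69.4%) and Twist2 (highest plate 27.1%) is seen on every plate.

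Single papilla cells carried several of these genes at once. Gene-rich papilla cells had between 2 and 8 of the 9, with a median of 5: 79 cells had 6, 58 had 4, 29 had 7, 9 had 3, 2 had 8, 1 had 2 and all others had 5. Alx4, Prrx1 and Trps1 were found together in 96.1% of them (exact 95% interval 93.2 to 97.9), or 86.6% of all papilla columns. Outside the papilla, the median cell had 1 of the 9 in P30 matrix and 0 in each of the other types. Without Trps1, 3 or more of the other 8 were found in 96.7% of gene-rich papilla cells, 17 P30 matrix cells (4.49%), 4 P25 to P27 matrix cells (2.04%), 1 of 68 telogen germ cells (1.47%) and in no anagen germ or bulge cell.

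Set against the P30 matrix, which touches the papilla in the same stage of hair growth, 5 of the 9 genes had a mean log2(TPM + 1) at least 1 higher in papilla cells. Of 16321 genes detected in at least 5% of the cells of either type, 6.69% were higher by that measure, and the median gene was lower in the papilla by 0.22 (-0.22). All 9 genes passed this filter in papilla cells. Prrx1, Tbx15 and Trps1 also passed it in P30 matrix cells (13.3%, 8.85% and 72.9% of cells). Alx4, Twist1, Twist2, Sox2, Tbx18 and Sox18 passed it through papilla cells alone. The 6.69% covers genes that passed through either type, so it is not a like measure for genes that passed through the papilla. Over all cells, Prrx1 averaged 63 TPM in papilla cells and 2.67 in P30 matrix cells (a log2 difference of 4.81), Alx4 57.3 and 0.143 (4.71), Tbx15 23.1 and 1.28 (2.88), Trps1 67.2 and 13.5 (2.50) and Twist1 11 and 0.31 (2.30). The other 4 were also higher on average, by less than 1: Twist2 averaged 6.17 TPM in papilla cells and 0.122 in P30 matrix cells (0.90), Sox2 2.49 and 0.0219 (0.61), Tbx18 1.71 and 0.098 (0.40) and Sox18 1.43 and 0.117 (0.25). These 4 were at 0 in most papilla cells. Without the cells under 2000 genes the same 5 stayed above 1, against 8.24% of genes tested, and Twist2 came to 1.00 (0.997, just under the limit).

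The same 5 genes were at least 1 higher than in every one of the 5 epithelial types. In each comparison alone, the share of genes at least 1 higher was 8.19% against P25 to P27 matrix, 7.92% against anagen germ, 6.3% against telogen germ and 7.31% against bulge. The share of genes higher than in all 5 types at once was not worked out, so the joint count has no matching share. Apart from Trps1, none of the 5 genes was detected in 5% of cells of an epithelial type other than P30 matrix. The smallest of these differences was 2.30 for Twist1, 2.50 for Trps1 and 2.88 for Tbx15, each against P30 matrix. Sox2 was detected in 61 papilla cells and, of all cells of the 5 epithelial types, in 1 P30 matrix cell at 8.41 TPM. Prrx1, Twist1, Twist2, Tbx15, Tbx18, Sox2 and Sox18 were listed at 0 in all 89 anagen germ cells, for which a count of 0 allows a share of up to 3.37% of cells. In the 39 bulge cells, Prrx1, Twist1, Twist2, Tbx18, Sox2 and Sox18 were at 0 (up to 7.69%), and Alx4 did not pass 0.19 TPM.

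Trps1 was the exception in the epithelium. It was detected in 72.9% of P30 matrix cells (68.2 to 77.3), 80 P25 to P27 matrix cells (40.2%, 33.3 to 47.4), 35 of 89 anagen germ cells (39.3%, 29.1 to 50.3), 31 of 71 telogen germ cells (43.7%, 31.9 to 56) and 7 of 39 bulge cells (17.9%, 7.54 to 33.5). Its mean level was 13.5 TPM in P30 matrix, 7.71 in P25 to P27 matrix, 8.13 in anagen germ, 13.6 in telogen germ and 1.41 in bulge. The intervals of the P25 to P27 matrix and both germ types overlap one another, and only that of the P30 matrix lies above them. The P30 matrix came from another strain and table, with more detected genes per cell, and their part in this gap was not tested.

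Of 40 relatives of the 9 (other ALX and PRRX-like, T-box, SOX, Twist-like bHLH and GATA genes), 19 passed the filter of 5% against P30 matrix among cells with at least 2000 genes, 2 were at least 1 higher in the papilla and 1 was at least 1 lower (8.24% and 15% of genes tested), with a median difference of -0.18 beside -0.15 over all genes tested. The higher ones were Shox2, a homeobox gene of limb and heart, at a mean of 65 TPM in papilla cells and 0.446 in matrix cells (detected in 92.4% and 4.22% of cells), and Prrx2, the paralogue of Prrx1, at 14.8 and 0.241 TPM (52.3% and 1.32%). Sox21, a SoxB2 gene, was the lower one, at 0.121 and 5.44 TPM (2.63% and 47%). Shox2 and Prrx2 passed the filter through papilla cells alone, and Sox21 through matrix cells alone. The 8.24% and 15% cover genes that passed through either type, so they are not a like measure for these genes. Sox4 (74.3% and 85.8% of cells) and Sox12 (31.3% and 23.5%), both SoxC genes, were found in both types with differences under 1. Of the 7 partners and inhibitors of Twist proteins, 1 was higher, Tcf4, an E protein with which they pair, at 85.6 and 27 TPM (98.7% and 92.1%), and 2 were lower, Id1 (9.22 and 31.8 TPM), an inhibitor of E proteins, and Tcf12, another E protein (22.2 and 33.8 TPM). Id3 and Tcf3, found in 86.8% and 72.7% of papilla cells and in 88.1% and 88.4% of matrix cells, differed by less than 1.

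Among 71 other transcription factors of mesenchyme, 60 passed the filter, 17 were at least 1 higher in papilla cells and 10 at least 1 lower, with a median difference of 0.33, beside 8.24% higher, 15% lower and a median of -0.15 over all genes tested. Among the most widely detected were Zeb2, a repressor of epithelial genes (138.3 TPM in papilla cells and 14.8 in matrix cells), Ebf1, a gene of adipose and stromal lineages (53.4 and 2.48), and Meis1, a TALE homeobox gene (33.5 and 2.40). Each was found in over 95% of papilla cells, and the log2 differences were 5.33 for Zeb2, 4.85 for Ebf1 and 3.48 for Meis1. They were named by share of papilla cells, a choice that favours genes higher there. The 8.24% and 15% cover genes that passed the filter through either type. They are not a like measure for genes that passed through the papilla.

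Within papilla cells the 9 genes had weak correlations with each other once near-empty columns were left out. Over all papilla columns, 10 of the 36 pairs had a Spearman correlation of log2(TPM + 1) of 0.2 or more, and the highest was 0.35, between Prrx1 and Tbx15. Among genes in general, detected in at least 20% of the columns, the share at 0.2 or more was 38.8% with Trps1, 37.6% with Alx4, 33.1% with Prrx1, 22.1% with Tbx15 and 20.8% with Twist1. It was 1.63% with Sox2, 1.15% with Twist2, 0.75% with Tbx18 and 0.194% with Sox18. Over the gene-rich cells none of the 36 pairs reached 0.2: the highest was 0.18 (Alx4 with Sox18), the median was 0.03 and 27 of the 36 lay between -0.1 and 0.1. Few genes in general reached 0.2 over these cells. The share was 1.87% with Alx4, 1.29% with Twist1, 1.07% with Prrx1, 0.522% with Sox2, 0.278% with Twist2 and 0.209% with Tbx15. The count of 0 pairs lies near these shares, so weak correlations were not particular to the 9 genes. All 33 columns left out hold every one of the 9 genes under 1 TPM. The cells share plates, unknown animals and a fixed TPM total, and these correlations are descriptions of them. Correlations of the 9 with the number of detected genes ran from -0.18 (Twist2) to 0.11 (Trps1) over the gene-rich cells. Sox2 had a correlation of 0.22 with the share of TPM on spike-in RNA, and Prrx1 of -0.25 with the share on ribosomal RNA, and the part of these in the correlations of Sox2 and Prrx1 with other genes was not tested.

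**Figure D3:**
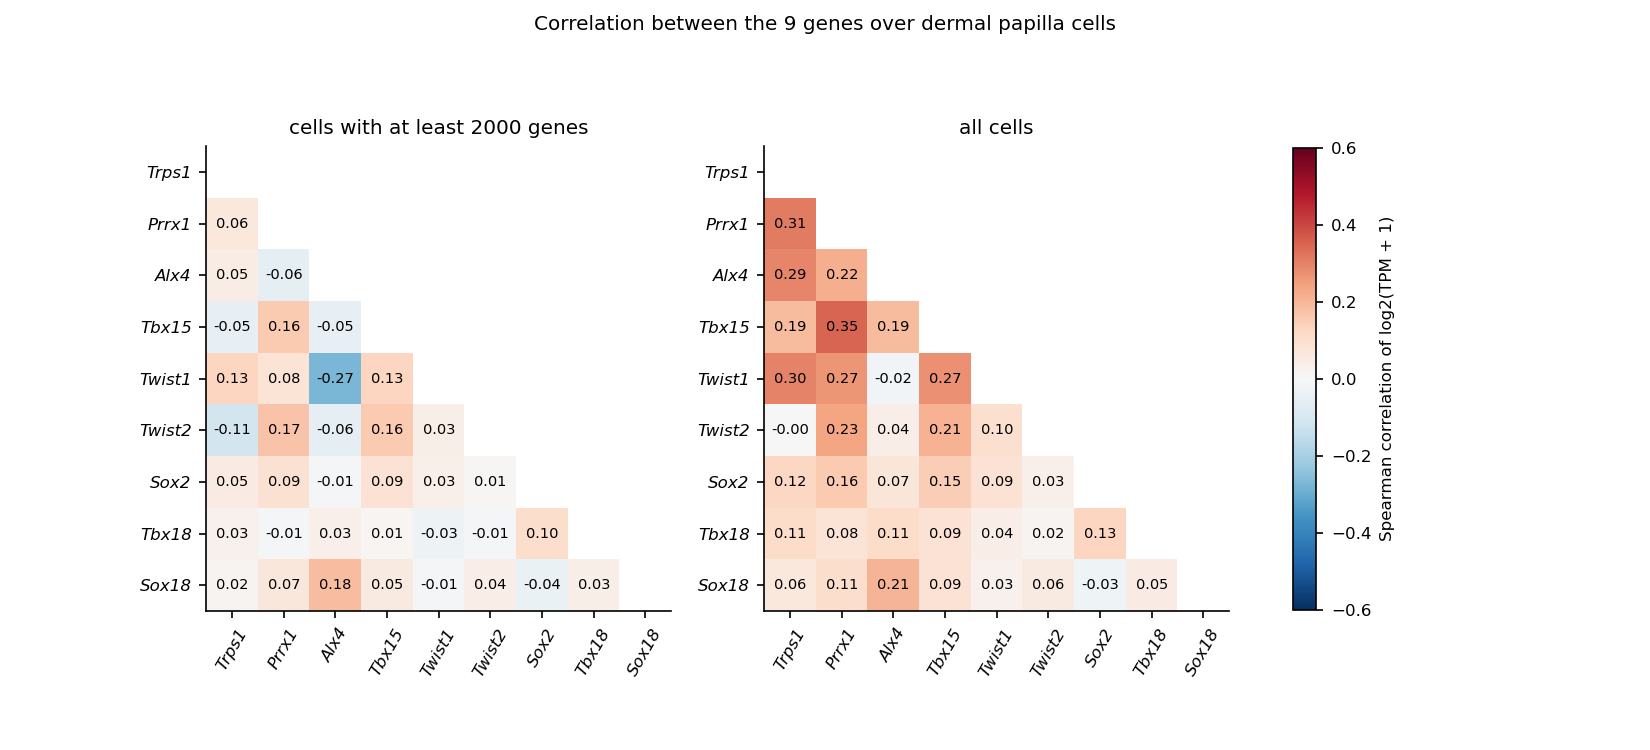
Spearman correlation of log2(TPM + 1) for the 36 pairs of genes, over the dermal papilla cells with at least 2000 genes (left) and over all dermal papilla columns (right). Red is positive and blue negative; the 10 pairs at 0.2 or more on the right fall below it on the left, where Alx4 with Twist1 stands out at -0.27.

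A single pair lay below -0.2. Alx4 and Twist1 had a correlation of -0.27 over the gene-rich cells, and it was negative on each plate (-0.20, -0.10, -0.51 and -0.24 on DP2, DP3, DP5 and DP6). The pair was picked as the lowest of the 36 over these same cells. Of genes in general, 1.7% had a correlation of -0.2 or less with Alx4 and 0.429% with Twist1. Twist1 averaged 9.16 TPM in the cells above the median of Alx4 (47.6 TPM), where 67.8% of cells had it, and 15.3 TPM in the cells at or below that median, where 79.6% did. Over all papilla columns the correlation was -0.02, and over the gene-rich cells without plate DP5 it was -0.18, short of the limit of -0.2.

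Among the genes found in a minority of cells, Sox2 and Tbx18 were found together in 16 cells, more than the 9.43 that their shares multiply to, with a correlation of 0.10. By plate this correlation was 0.08 on DP2, 0.28 on DP3, 0.06 on DP5 and 0.00027 on DP6. Other pairs lay nearer to that product: Sox2 and Twist2 were found together in 15 (15), Twist2 and Sox18 in 8 (6.41) and Sox2 and Sox18 in 4 (5.22). Twist1 and Twist2 shared 56 cells, against 55.3 by multiplication. Tbx18 was also the gene most affected by the limit of detection: 24 papilla cells had a value above 0 and under 1 TPM.

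Over the gene-rich cells, Alx4 had more genes at 0.2 or more, and more at -0.2 or less, than any other of the 9. Of 8623 genes detected in at least 20% of the gene-rich cells, 1.87% had a correlation with Alx4 of 0.2 or more and 1.7% of -0.2 or less. The 3 genes most like it over all papilla columns were Tsc22d1, a leucine zipper factor of TGF-β responses (0.60), Ltbp1, a latent TGF-β binding protein (0.59), and Rspo4, an R-spondin that strengthens WNT signals (0.56). Over the gene-rich cells they stood at 0.48, 0.45 and 0.45, and all 3 were positive on each plate. Tsc22d1 averaged 217.3 TPM in the cells above the median of Alx4 and 78.8 in those at or below it, Ltbp1 281.9 and 177.4, and Rspo4 843.9 and 454. The genes most opposed to Alx4 over the gene-rich cells included Gpx1, a glutathione peroxidase (-0.47), and Dkk2, a secreted modulator of WNT signals (-0.44), both negative on each plate. These 2 genes and the 3 most like Alx4 were chosen by correlations over the same plates. Their signs by plate describe spread and are no separate support. Gpx1 averaged 70.1 TPM above the median of Alx4 and 223.2 at or below it, and Dkk2 95 and 182.5.

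Many follicle mesenchyme markers were higher in cells with more Alx4. Of the 20 markers detected in at least 20% of the gene-rich cells, 10 had a correlation with Alx4 of 0.2 or more and none of -0.2 or less, beside 1.87% and 1.7% of genes in general. The R-spondin genes Rspo2 (0.37) and Rspo3 (0.35), Alpl, the alkaline phosphatase used to stain papillae (0.38), and the growth factor gene Fgf10 (0.32) were the highest. Alpl averaged 43.8 TPM in the cells above the median of Alx4 and 13.6 in those at or below it, and Rspo3 134.3 and 60.9. Lef1 was among the 10 (0.31), and its name is in the reporter used for the sort. The 10 were detected in 26.3% (Bmp6) to 99.7% (Vcan) of the gene-rich cells. Shares for genes in general at like detection were not worked out. Of 7 dermal fibroblast markers, 3 had a correlation of -0.2 or less, with the collagen gene Col1a1 at -0.35 (182.4 TPM above the median of Alx4 and 409.8 at or below it). Col1a1 averaged 2337 TPM in the 10 gene-rich cells without Alx4 and 226.7 in those with it, so these few cells raise the mean of 409.8. The same 20 markers gave 0 positive and 3 negative counts for Prrx1: Alpl (-0.32), Rspo2 (-0.27) and Rspo3 (-0.25). For genes in general, 1.07% had a correlation with Prrx1 of 0.2 or more and 0.615% of -0.2 or less. Alpl averaged 14.7 TPM in cells above the median of Prrx1 and 42.7 in those at or below it, the reverse of its order by Alx4.

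Some of the same genes varied with Twist1 in the other direction. The 3 most like it over all papilla columns were Dkk2 (0.46), Cd9, a tetraspanin (0.45), and Cdkn1a, the cell cycle inhibitor p21 (0.42), and over the gene-rich cells they stood at 0.35, 0.31 and 0.33, positive on each plate. As they were chosen over the same plates, these signs are no separate support. Dkk2 averaged 175.7 TPM in the cells above the median of Twist1 (7.24 TPM) and 101.8 in those at or below it. Tsc22d1, the gene most like Alx4, had a correlation of -0.27 with Twist1 and averaged 100 TPM above its median and 196.1 at or below it. Rspo3 (-0.26) and Rspo2 (-0.23) were the 2 of 20 follicle mesenchyme markers at -0.2 or less, and none was at 0.2 or more. In general, 1.29% of genes had a correlation with Twist1 of 0.2 or more and 0.429% of -0.2 or less.

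**Figure D4:**
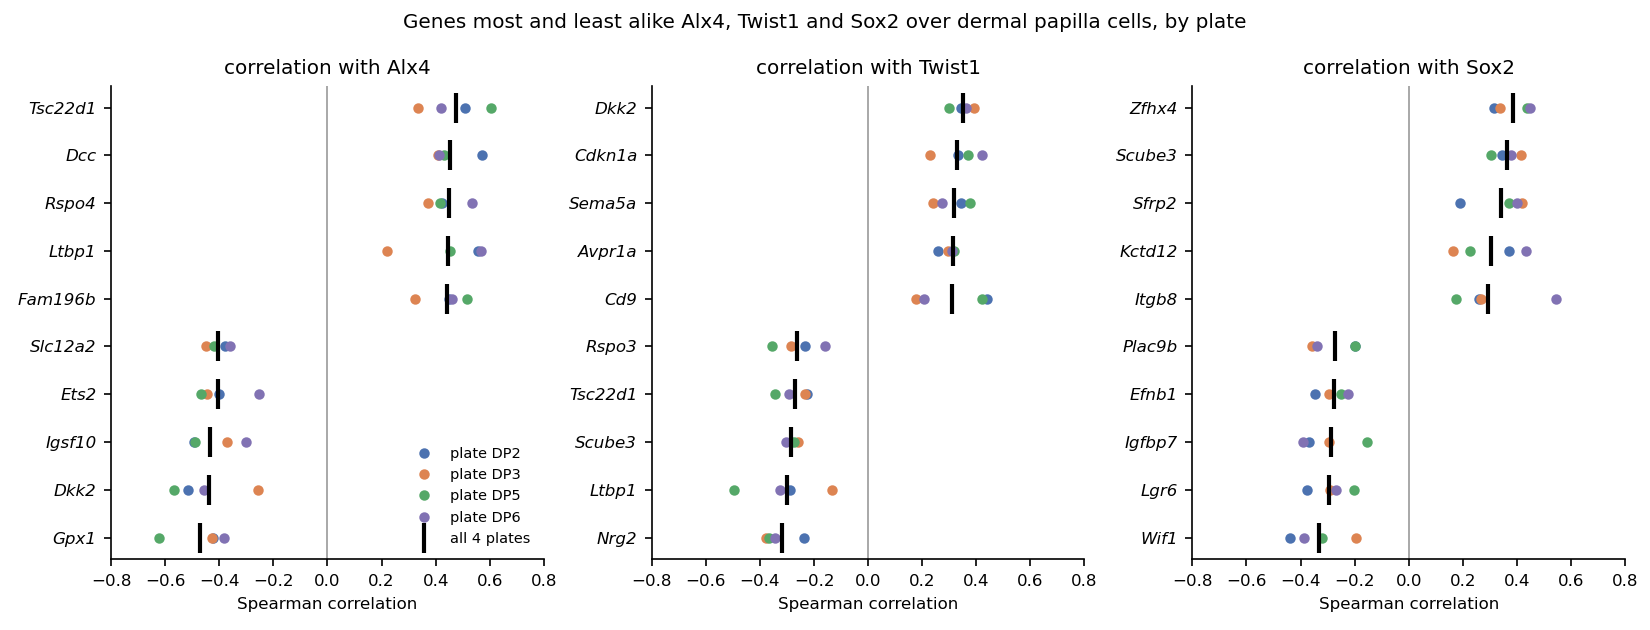
Spearman correlation of log2(TPM + 1) of Alx4, Twist1 and Sox2 with the 5 genes most like and the 5 most opposed to each, over the gene-rich dermal papilla cells (black bars) and on each of the 4 plates (points). The genes were chosen by the values of the black bars; every point lies on the same side of 0 as its bar, as with Tsc22d1 (0.34 to 0.61) for Alx4.

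Sox2 marked a minority of papilla cells that differed in several secreted factors. The 3 genes most like it were Zfhx4, a zinc finger homeobox gene (0.41 over all columns, 0.38 over gene-rich cells), Scube3, a secreted papilla factor that acts on hair growth in the mouse (0.39 and 0.36), and Sfrp2, a secreted WNT modulator (0.37 and 0.34). Zfhx4 was detected in 90.2% of the 61 cells with Sox2 and 42% of those without, at mean levels of 41.1 and 16.8 TPM. Scube3 averaged 151.97 TPM in cells with Sox2 and 67.4 in those without, and Sfrp2 67.6 and 25.1. In the other direction, Wif1 averaged 475 TPM in cells with Sox2 and 958.3 in those without (-0.33), and Lgr6, a receptor for R-spondins, was detected in 14.8% of cells with Sox2 and 46.9% of those without (-0.30). These signs held on each of the 4 plates. The genes were chosen by correlations over the same plates, so the signs describe spread and are no separate support. Of the 20 follicle mesenchyme markers, 3 had a correlation with Sox2 of 0.2 or more (Sfrp2, Pdgfra and Rspo3) and 2 of -0.2 or less (Wif1 and Notum), beside 0.522% and 0.533% of genes in general. Sox2 is also a gene of Schwann and Merkel cell lineages, and of 10 Schwann cell markers Sox10 was detected in 1 gene-rich papilla cell, a cell with Sox2, while 1 of the 61 cells with Sox2 and none of those without had 3 or more of them.

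For Twist2 the 3 genes most like it were Tspan11, a tetraspanin (0.30 over all columns, 0.26 over gene-rich cells), Ptgfr, a prostaglandin F receptor (0.30 and 0.27), and Fbln2, an extracellular matrix protein (0.29 and 0.25), with Ptgfr in 54.7% of the 75 cells with Twist2 and 27.1% of those without. Of the 20 follicle mesenchyme markers, none had a correlation with Twist2 of 0.2 or more and 3 of -0.2 or less (Rspo3, Crabp1 and Fgf7), beside 0.278% and 0.591% of genes in general. For Tbx15 they were Tcf4, the E protein (0.40 and 0.24), Tns3, a focal adhesion protein (0.40 and 0.24), and Tsc22d3, a glucocorticoid-induced factor (0.39 and 0.23), and Alpl was the marker of the 20 at -0.2 or less (-0.22), with 0 at 0.2 or more, beside 0.139% and 0.209% of genes in general. For Prrx1 they were the clone-named transcript RP24-390N7.1 (0.53 and 0.36), Ccrn4l, the clock-controlled gene of nocturnin (0.50 and 0.31), and Jmjd1c, a histone demethylase family gene (0.49 and 0.31). For Trps1 they were the clone-named transcripts RP23-1B20.4 (0.49 and 0.31) and RP23-33C9.1 (0.45 and 0.26) and Tmem72, a membrane protein (0.45 and 0.25). The genes named for Twist2, Tbx15, Prrx1 and Trps1 were chosen over all papilla columns, near-empty ones included. Their values over the gene-rich cells are no separate support. On single plates the correlation fell to 0.07 for Tbx15 with Tcf4, and for Prrx1 to 0.13 with RP24-390N7.1 and 0.11 with Jmjd1c. For Tbx18 and Sox18, found in few cells, the highest correlations over the gene-rich cells were 0.22 and 0.24, which in values this sparse is no finding. None of the 26 cells with Sox18, a gene also known from endothelium, had 3 or more of 10 endothelial markers.

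Of P30 matrix cells with at least 2000 genes, 67 had any of the 8 genes other than Trps1, and 17 of these had 3 or more. Prrx1 was detected in 51 of the P30 matrix cells with at least 2000 genes (13.5%), and of these 51 cells 28 (54.9%) had Tbx15 and 10 (19.6%) had Twist1, against 6 (1.83%) and 0 of the matrix cells without Prrx1. Trps1 went the other way, found in 26 of the 51 (51%) and in 77.4% of the others. The 51 cells had a median of 4 of 10 keratinocyte markers (range 0 to 10) and 5 of 10 markers of dermal sheath and smooth muscle (0 to 10), against 8 (0 to 10) and 1 (0 to 9) in the others. In the 17 cells with 3 or more of the 8 genes, the median was 9 of 10 sheath and smooth muscle markers (summed level 41.4 to 7153 TPM), against 1 of 10 (0 to 4948 TPM) in the other P30 matrix cells. Myh11, smooth muscle myosin, was found in 16 of the 17 and 9 of the others, and Rgs5, a pericyte gene, in 15 and 14. In gene-rich papilla cells Myh11 was found in 2 and Rgs5 in 1. Tbx15 averaged 8.81 TPM in the 51 P30 matrix cells with Prrx1 and 0.126 in the others, Twist1 2.34 and 0, and Alx4 0.801 and 0.0423. Trps1 (6.14 and 14.8) and Sox2 (0 and 0.0256) went the other way. The mean of Twist1 in P30 matrix given above therefore comes from cells that also had Prrx1. The part of the 17 cells alone in the mean levels of the P30 matrix was not tested.

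**Figure D5:**
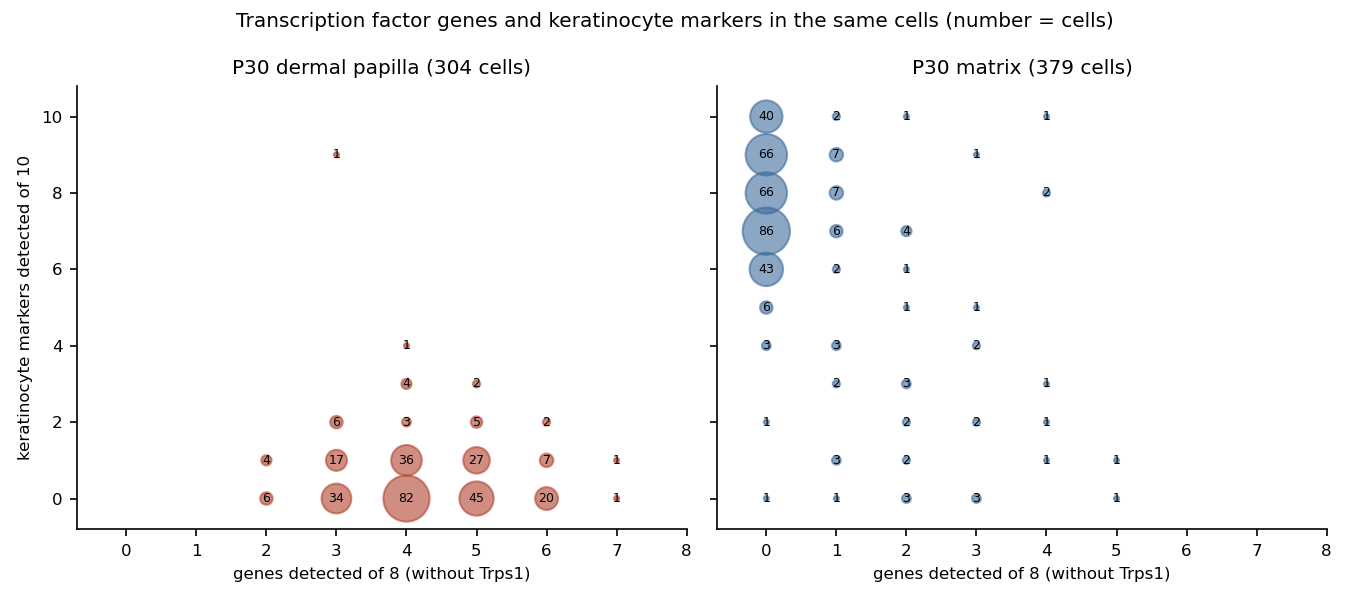
Number of the 8 genes (all but Trps1) detected in a cell against the number of 10 keratinocyte markers detected in the same cell, for the dermal papilla (left) and the P30 matrix (right), among cells with at least 2000 genes. The area of a disc and the figure in it give the number of cells; papilla cells had 2 to 7 of the 8 and P30 matrix cells 0 to 5.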

How the data were processed

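The tables hold the authors' deposited TPM for 1119 cells, in 3 tables of 46609 rows. Per the submitters' processing notes, Bowtie2 2.2.9, RSEM 1.2.30 and mm10 were used. The papilla table is delimited by the literal characters slash and t, so its values were listed under another unit; the deposited columns of each table summed to 1000000 within rounding, as TPM do. All columns matched a sample. From these values, means of TPM and of log2(TPM + 1), shares of cells at 1 TPM or more with exact (Clopper-Pearson) 95% intervals, and Spearman correlations across cells were computed with Python 3.11.15, NumPy 2.4.6, pandas 2.3.3 and SciPy 1.17.1, and the scripts were tested on simulated data. Genes tested exclude 92 spike-in rows, ribosomal RNA and mitochondrial rows. The rescaled TPM leave out the same rows.

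The 9 genes, the marker lists and the rules were chosen with earlier results of these data known. The genes named are the 9, for each the 3 with the highest correlation over all papilla cells (detected in at least 20%, without ribosomal protein genes, pseudogenes and predicted models), and up to 4 of each list by share of papilla cells; further genes named were chosen after their values were seen, among them the most opposed genes, Sox21, Id1, Myh11 and Rgs5. An item that this rule names is not reported here. No tests were made, since no animals are named. Alternatives are another pseudocount, thresholds, the scaling, filters on cells and each plate left out.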

Additional observations from a re-analysis of the deposited data

How the results depend on the processing

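The counts of genes at least 1 higher in papilla than in P30 matrix cells, and than in every epithelial type, were 5 each, and 5 to 7 under each alternative: 7 with a pseudocount of 0.1, 6 with rescaled TPM (which moved the median of all genes against P30 matrix to -0.50, beside -0.22), 5 with a limit of 2. The median of 5 genes per papilla cell became 4 at 5 TPM. The number of pairs at 0.2 or more was 10 and lay between 8 and 11 with each plate left out, but was 0 in the 300 cells with at least 4000 genes and 0 in those with at least 2000, a limit chosen after seeing the data; both filters remove the 33 near-empty columns. Rescaling, the mean within plates, the rank partial correlation given genes detected, Pearson's correlation and leaving out 40 cells with markers of other types gave 10, 9, 8, 11 and 11. Shares of papilla cells with a gene moved by more than the spread of plates for 5 genes when near-empty columns were left out and for 4 at 5 TPM (Twist1 50.4%, Tbx15 60.8%, Sox2 12.5%, Tbx18 6.82%), and Tbx18 was in 21.1% above 0 TPM. Among cells with at least 2000 genes the correlation of Alx4 with Twist1 lay between -0.33 and -0.18 over the alternatives, with the -0.18 without plate DP5. No paired analysis was possible because each type comes from its own plates and no test was made. TPM hide read depth, so a gene at 0 may lie under the limit of detection.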

Other observations

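A few cells labelled epithelial carried most of the 9 genes. In the P25 to P27 matrix, 1 cell held Alx4 at 103.5 TPM, Prrx1 at 103.3, Trps1 at 152.1, Tbx15 at 44.8 and Twist1 at 17.4, with 15 of 22 follicle mesenchyme markers and with the basal keratins Krt5 and Krt14 at 0. In the telogen germ, 1 cell held Tbx15 at 96.2 TPM, Twist2 at 68.3, Prrx1 at 59.9 and Twist1 at 32.3, with the collagen gene Col1a1 at 2978 TPM and 0 of 10 keratinocyte markers. The 4 P25 to P27 matrix cells with 3 or more of the 8 genes had 3 to 9 of 10 dermal fibroblast markers, against 0 to 4 in the others. The mean of 0.52 TPM for Alx4 in P25 to P27 matrix rests on the 1 cell named above.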
